A study of Mus musculus with 9 samples.

Results

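Mouse genes with symbols of the form Zfp and a number encode zinc finger proteins, most of them DNA-binding transcription factors. The 224 genes described here are the protein-coding Zfp genes that had at least 10 counts in each of the 9 libraries, and Zfp36 and its relatives, which encode RNA-binding proteins with another kind of finger, were left out. They were taken from 355 protein-coding Zfp genes in a deposited table of 35275 genes. Of those 355 genes, 278 passed the filter on low counts and were tested, among them all 224, while 77 were not tested and 13 had no count in any library. They were thus selected on their measured read counts, so the level of these genes is a property of the choice, and a gene whose counts dropped below the limit in any treatment was lost from the set. The members nearest to the limit were Zfp119a, Zfp607, Zfp593 and Zfp748, each with a lowest count of 10, and 7 genes lay just outside it with a lowest count of 9, among them Zfp157, Zfp820 and Zfp667.

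The libraries were made from MEFs (mouse embryonic fibroblasts), connective tissue cells cultured from embryos, which the labels give as C57Bl/6 and the study as wild type. Cells stayed in iso-osmolar medium or were exposed for 3 h to medium with 200 mM sucrose added, at a total of 500 mOsm, or with 300 mM added, at a total of 600 mOsm. Sucrose draws water out of the cells, and the study set a low intensity of this stress, 500 mOsm, against a high intensity, 600 mOsm. Each treatment was sequenced as 3 libraries of poly-T selected RNA, and since no label says that these came from separate cultures, the p-values below measure only the spread between libraries, which may be technical. The samples are bulk RNA, in which fewer cells of a type and less RNA per cell cannot be told apart.

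Zinc finger proteins of the C2H2 kind carry repeated modules in which cysteines and histidines hold a zinc ion, and each module can read a few bases of DNA. Many members also carry a KRAB box, a short domain that recruits the corepressor Trim28 (KAP1) and, through it, enzymes that methylate histones and silence chromatin. KRAB zinc finger genes multiplied in mammals by tandem duplication and lie in clusters, where many of their products repress retroelements. Other members have no KRAB box and serve as activators, as parts of chromatin complexes or as RNA-binding proteins.

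Total counts ranged from 21716042 to 26740832 per library, and the smallest signal, a count of 3, was worth 0.112 to 0.138 CPM (counts relative to the normalized library size), a floor that covers counting error only. All 9 fibroblast markers examined, among them Col1a1, Vim and Fn1, exceeded 1 FPKM (counts per length of the gene and per size of the library) in every library. Of 12 markers of epithelial, endothelial, blood, muscle and pluripotent cells, none exceeded 1 FPKM in all libraries, and Pecam1 and Cd68 exceeded it in some. The summed level of these 12 markers ranged from 1.27 to 2.03 FPKM in iso-osmolar medium, from 6.13 to 6.50 FPKM at 500 mOsm and from 2.34 to 3.20 FPKM at 600 mOsm. It was highest in the 500 mOsm libraries, in which the median member was lowest, and its part in the results below was not tested. The sum pools markers of different kinds of cells. Over all libraries Pecam1 ranged from 0.0535 to 3.52 FPKM and Cd68 from 0.694 to 1.54 FPKM. The other endothelial markers, Cdh5 and Kdr, reached at most 0.204 and 0.0764 FPKM. Epcam, Cdh1, Kdr, Ptprc, Myod1 and Pou5f1 were at 0 in at least 1 library.

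The promoters of 4 members are shown here because these genes were among those with the smallest p at 500 mOsm in each direction and serve as examples below. Zfp830 and Zfp334 fell at 500 mOsm, and Zfp367 and Zfp219 rose. Each sequence is the RefSeq promoter, from 250 bases before to 50 bases after the gene's start on GRCm38.p6 (mm10), read 5′ to 3′ on the gene's strand. Capitals mark CCAAT, the box bound by the factor NF-Y, and TGGAAA, the core of the site bound by the osmotic stress factor NFAT5 (TonEBP), each on either strand; the last bases of ATTGG, the reverse of CCAAT, can also be the first of TGGAAA. The positions are chr11:82764095-82764394 on the plus strand for Zfp830, chr2:165388210-165388509 on the minus strand for Zfp334, chr13:64153150-64153449 on the minus strand for Zfp367 and chr14:52020684-52020983 on the minus strand for Zfp219.
Zfp830: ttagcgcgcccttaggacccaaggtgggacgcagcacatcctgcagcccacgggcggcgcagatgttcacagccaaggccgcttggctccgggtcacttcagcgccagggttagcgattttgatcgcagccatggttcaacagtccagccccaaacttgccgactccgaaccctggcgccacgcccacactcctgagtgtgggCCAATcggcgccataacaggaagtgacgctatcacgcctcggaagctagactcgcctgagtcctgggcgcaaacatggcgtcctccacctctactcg
Zfp334: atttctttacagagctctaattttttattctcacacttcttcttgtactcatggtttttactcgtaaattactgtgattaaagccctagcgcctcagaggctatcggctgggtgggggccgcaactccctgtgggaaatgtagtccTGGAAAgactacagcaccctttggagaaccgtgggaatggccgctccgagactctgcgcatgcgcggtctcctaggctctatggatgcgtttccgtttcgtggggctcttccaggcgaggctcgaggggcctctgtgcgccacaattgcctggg
Zfp367: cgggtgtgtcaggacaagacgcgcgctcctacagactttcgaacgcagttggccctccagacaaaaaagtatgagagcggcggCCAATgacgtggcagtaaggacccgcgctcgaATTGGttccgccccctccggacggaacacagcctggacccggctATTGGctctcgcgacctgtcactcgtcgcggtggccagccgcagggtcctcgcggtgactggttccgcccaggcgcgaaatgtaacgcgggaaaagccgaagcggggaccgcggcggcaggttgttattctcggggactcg
Zfp219: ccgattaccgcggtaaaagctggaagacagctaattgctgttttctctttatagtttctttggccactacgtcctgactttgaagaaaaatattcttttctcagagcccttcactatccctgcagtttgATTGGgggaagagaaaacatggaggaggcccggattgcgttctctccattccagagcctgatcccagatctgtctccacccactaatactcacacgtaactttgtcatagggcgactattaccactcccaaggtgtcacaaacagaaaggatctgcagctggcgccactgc

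These 4 promoters held 24, 16, 36 and 9 CpG dinucleotides, in the order printed. A RefSeq promoter within 500 bases of the deposited start was found for 162 of the 224 members. Those promoters had a median of 17 CpG, against 7 over 27025 promoters, 1 per gene. The larger set took the first listed promoter of each gene, expressed here or not, while the members were chosen by their counts. Promoters of other expressed coding genes were not compared. This difference and those that follow therefore cannot be assigned to the Zfp genes as such. The GC box GGGCGG, searched on both strands, was present in 50% of the members' promoters against 35.9% of all. CCAAT was present in 42.6% against 37.9%, and ACTACAA, a part of the site bound by Zfp143 and its human counterpart, in 7.41% against 3.45%. TGGAAA was present in 25.9% of the members' promoters against 21.5% of all, and in 26.4% of the 72 promoters of members that fell at 500 mOsm. These counts of letters describe the windows and do not locate binding.

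The levels of the members lay mostly below those of other genes. Mean FPKM over all libraries ranged from 0.0882 for Zfp704 to 72.7 for Zfp706, with a median of 1.90 against 6.79 over the protein-coding genes tested. The transcripts were slightly longer than those of other genes, with a median listed length of 3624 bases against 3176.5, while the genes spanned less of the genome, with a median of 15715.5 bases from start to end against 22796. A search of the translated coding sequences found a median of 9 C2H2 fingers per protein, with a range from 0 in 5 members to 36 in Zfp142. A KRAB A box, written as the letters of its conserved core, was found in 69 members and a SCAN domain, which pairs such proteins with each other, in 9.

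At 500 mOsm many Zfp genes fell. By edgeR's quasi-likelihood test against iso-osmolar medium, with Benjamini-Hochberg adjustment over the 13082 genes tested and a threshold of 0.05, 101 of the 224 members (45.1%) were lower and 10 (4.46%) were higher. Over all genes tested, 14.8% were lower and 13.2% were higher. The median log2 fold change of the members was -0.36, with quartiles of -0.82 and -0.04, against 0.01 over all genes tested. The fold change was negative in 173 of the 224 members, against 6221 of the 13082 genes tested. Of the members called lower, 41 had a fold change below -1, against 411 of all genes tested. All 3 libraries at 500 mOsm lay below all 3 iso-osmolar libraries in 115 members and above them in 18, where this held for 20.8% and 20.1% of all genes.

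At 600 mOsm fewer members were lower. Against the same iso-osmolar libraries, 61 members (27.2%) were lower and 10 were higher, where 20% and 15.1% of all genes tested were lower and higher. The median fold change (log2) was -0.14, the quartiles being -0.42 and 0.05, against 0.01 over all genes. Of the members called lower, 5 were below -1, against 426 of the 13082 genes tested. Without iso-osmolar library 1 or without 600 mOsm library 1, 6 members were higher, without 600 mOsm library 2 the median was -0.22, and a correction for GC content and length gave 17 higher members. The libraries did not overlap in 79 members that were lower and 18 that were higher, against 25.5% and 23% of all genes. Both comparisons use the same control libraries, so their values are given side by side and no overlap between them is read.

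Compared directly, 72 members (32.1%) were higher at 600 mOsm than at 500 mOsm and 21 (9.38%) were lower, where 11.9% and 17.2% of all genes tested were higher and lower. The median log2 fold change between the intensities was 0.23, with quartiles of -0.07 and 0.61, against 0.01 over all genes. All 3 libraries at 600 mOsm lay above those at 500 mOsm in 90 members and below them in 26, against 19.2% and 22.3% of all genes. This comparison shares the 500 mOsm libraries with the first comparison and the 600 mOsm libraries with the other.

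**Figure D1:**
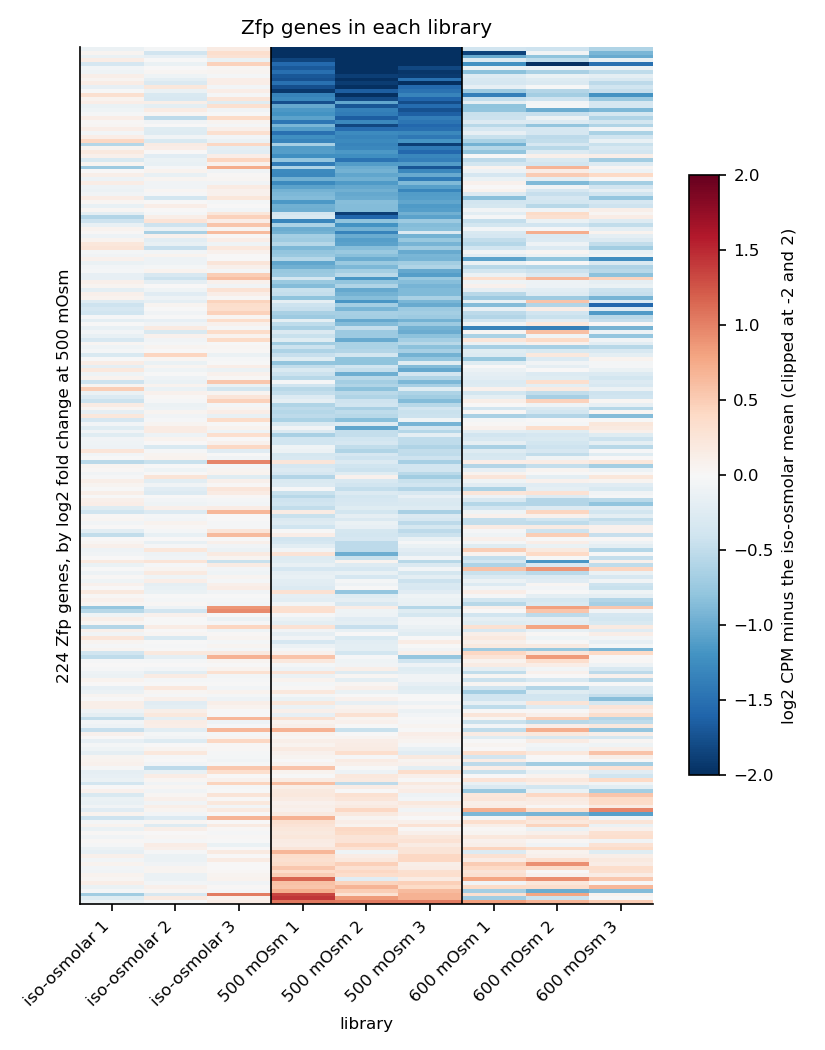
Each row is 1 of the 224 Zfp genes and each column 1 library, and color gives log2 CPM minus the mean of the iso-osmolar libraries, clipped at -2 and 2. Rows are ordered by the log2 fold change at 500 mOsm, which ran from -2.82 to 1.04, and the upper rows are dark blue in the 3 libraries at 500 mOsm and paler in those at 600 mOsm.

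**Figure D2:**
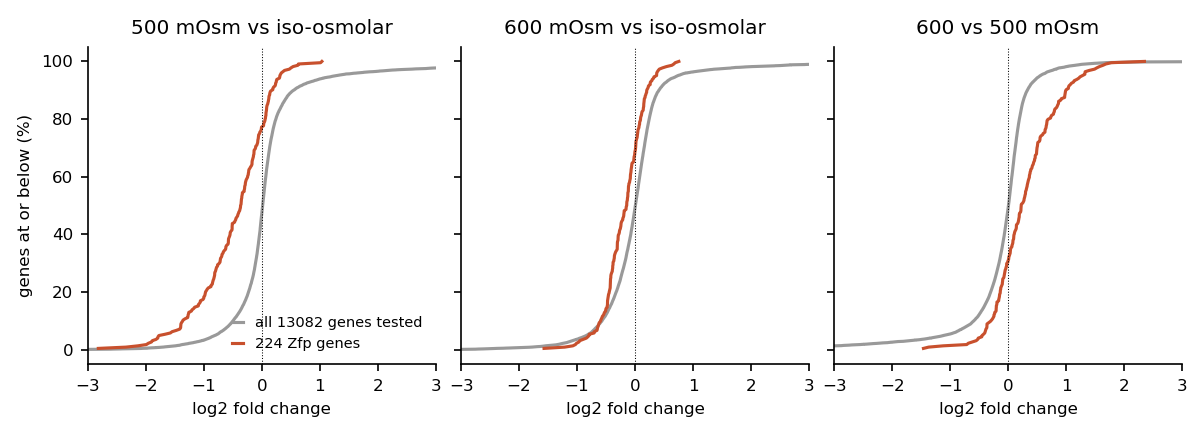
Cumulative share of genes (%) at or below each log2 fold change for the 224 Zfp genes (orange) and all 13082 genes tested (grey) in the 3 comparisons. The Zfp curve lies to the left of the grey curve at 500 mOsm (medians -0.36 and 0.01), and to its right between 600 and 500 mOsm (medians 0.23 and 0.01).

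Added together, the members took 4576 ± 51.5 CPM in iso-osmolar medium, 3990 ± 148 CPM at 500 mOsm and 3911 ± 7.22 CPM at 600 mOsm (SD, n = 3). The sum weighs the most abundant members most, and it was as low at 600 mOsm as at 500 mOsm. The exact two-sided permutation test gave p = 0.1 for each treatment against iso-osmolar medium and p = 0.4 between the treatments, and 0.1 is the smallest p that 3 libraries against 3 allow.

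The members with the smallest p among those that fell at 500 mOsm were Zfp830, Zfp866, Zfp334 and Zfp629. Zfp830 encodes a nuclear protein that associates with the splicing machinery. Its level was 18.9, 16.4 and 17.1 CPM in the iso-osmolar libraries, 5.37, 4.75 and 4.65 CPM at 500 mOsm and 14.7, 16 and 15.3 CPM at 600 mOsm. The 500 mOsm libraries stood far below both other groups, and the 600 mOsm libraries lay just below the iso-osmolar ones. The fall at 500 mOsm was 3.55-fold (log2 fold change -1.83, SE 0.099, edgeR adjusted p = 3.80e-08), and the change at 600 mOsm was -0.19 (adjusted p = 0.121). Zfp830 had the smallest genomic span of all members, 1591 bases.

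Zfp866, a KRAB zinc finger gene with 12 fingers, had the largest fall of all members. It was counted at 4.46, 4.71 and 5.48 CPM in iso-osmolar medium, at 0.738, 0.641 and 0.686 CPM at 500 mOsm and at 3.73, 3.67 and 3.21 CPM at 600 mOsm. No treatment overlapped another, and the 500 mOsm libraries lay far below both others. The fall was 7.07-fold at 500 mOsm (log2 fold change -2.82, SE 0.170, edgeR adjusted p = 9.94e-08), and the level at 600 mOsm was 5.11-fold above that at 500 mOsm (adjusted p = 8.79e-07). Against iso-osmolar medium its log2 fold change at 600 mOsm was -0.47 (adjusted p = 0.0168), a call that was lost without iso-osmolar library 3 (adjusted p = 0.0818) and without 600 mOsm library 3 (0.0724), and by DESeq2 (0.0685). Of its annotated sequence, 5.87% is shared with Gm20422 on the same strand, so some reads could belong to either.

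Zfp334, with 14 fingers and no KRAB match, had 27.8, 24.1 and 24.2 CPM in iso-osmolar medium, 10.9, 10.1 and 9.38 CPM at 500 mOsm and 18.5, 17.6 and 19.1 CPM at 600 mOsm. The 3 treatments formed separate groups, with 600 mOsm in between. Its log2 fold change was -1.33 at 500 mOsm (SE 0.089, edgeR adjusted p = 2.61e-07) and -0.46 at 600 mOsm (adjusted p = 0.00129). Zfp629, with 19 fingers, had 12.7, 11.9 and 13.0 CPM in iso-osmolar medium, 4.59, 5.13 and 4.54 CPM at 500 mOsm and 10.4, 10.4 and 9.67 CPM at 600 mOsm, a fall of 1.40 on the log2 scale at 500 mOsm (adjusted p = 3.45e-07). The order of the treatments was the same as for Zfp334, with the 600 mOsm libraries nearer to the iso-osmolar ones. The change of Zfp629 at 600 mOsm was -0.30 (adjusted p = 0.0205), which was lost without iso-osmolar library 1 or 3 or 600 mOsm library 3, with adjusted p between 0.0597 and 0.0785.

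The other large falls at 500 mOsm were in Zfp160, a KRAB gene of chromosome 17 (-2.34, edgeR adjusted p = 5.03e-04), and in Zfp933 of chromosome 4 (-2.14, adjusted p = 1.45e-05). Zfp160 had between 1.84 and 3.03 CPM in iso-osmolar medium and between 0.452 and 0.496 CPM at 500 mOsm. At 600 mOsm its libraries spread widely, with 0.670, 2.28 and 1.28 CPM, and the call that it was higher than at 500 mOsm (1.53, adjusted p = 0.0154) was lost without 600 mOsm library 2 (adjusted p = 0.0570). Zfp933 had between 1.88 and 2.58 CPM in iso-osmolar medium, between 0.451 and 0.496 CPM at 500 mOsm and between 1.04 and 1.21 CPM at 600 mOsm. Both genes had fewer than 20 counts in their lowest library, so their levels at 500 mOsm are less precise than those of Zfp830.

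Among the members that were higher at 600 than at 500 mOsm, Zfp830, Zfp866, Zfp84 and Zfp629 had the smallest p, and Zfp866, Zfp84 and Zfp747 the largest changes. Zfp84, a KRAB gene with 11 fingers, had 4.55, 4.75 and 4.87 CPM in iso-osmolar medium, 1.48, 0.980 and 1.33 CPM at 500 mOsm and 4.31, 4.34 and 4.37 CPM at 600 mOsm. Its levels in iso-osmolar medium and at 600 mOsm lay close together (log2 fold change -0.12, edgeR adjusted p = 0.512), while the difference between the intensities was 1.78 (adjusted p = 3.62e-06). Zfp747, another KRAB gene, had a mean of 5.60 ± 0.56 CPM in iso-osmolar medium, 1.40 ± 0.13 CPM at 500 mOsm and 4.51 ± 0.55 CPM at 600 mOsm (SD, n = 3), with a difference of 1.69 between the intensities (adjusted p = 6.38e-06). Of its sequence, 10.6% is shared with 2 genes, among them 9130019O22Rik on the same strand.

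Those members that fell at 600 mOsm with the smallest p were Zfp609, Zfp652, Zfp142 and Zfp280b. Zfp609, whose product works with the cohesin loader Nipbl and the Integrator complex, had 94.3, 86.7 and 89.1 CPM in iso-osmolar medium, 102, 103 and 95.6 CPM at 500 mOsm and 48.5, 47.3 and 42.4 CPM at 600 mOsm. The 500 mOsm libraries lay slightly above the iso-osmolar ones (0.15, edgeR adjusted p = 0.0827), and all 3 libraries at 600 mOsm lay far below both. The log2 fold change was -0.97 against iso-osmolar medium (SE 0.062, adjusted p = 2.10e-07) and -1.12 against 500 mOsm (adjusted p = 5.27e-08), the smallest p of any member that was lower at 600 than at 500 mOsm.

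Zfp652, which binds a corepressor of the ETO family, was also lowest at 600 mOsm. It had 49.8, 48.0 and 46.9 CPM in iso-osmolar medium, 46.7, 41.9 and 45.7 CPM at 500 mOsm and 29.4, 28.6 and 25.5 CPM at 600 mOsm, a log2 fold change of -0.79 at 600 mOsm (SE 0.071, edgeR adjusted p = 3.73e-06). At 500 mOsm its change was -0.11 (adjusted p = 0.291). It shares 16.4% of its annotated sequence with other genes.

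Zfp142, the member with the most fingers, had 60.8, 61.4 and 63.5 CPM in iso-osmolar medium, 37.4, 38.5 and 37.4 CPM at 500 mOsm and 41.1, 45.3 and 41.9 CPM at 600 mOsm. Both stressed groups lay well below the control, with values of -0.71 at 500 mOsm (log2, edgeR adjusted p = 1.14e-06) and -0.53 at 600 mOsm (adjusted p = 1.59e-05). Zfp142 shares 15.7% of its sequence with Plcd4 on the opposite strand. The sources used here do not state whether counting used the strand, so reads of the shared part cannot be assigned. Zfp280b fell to a like level in both, with a mean of 38 ± 2.2 CPM in iso-osmolar medium, 22.4 ± 1.6 CPM at 500 mOsm and 22.0 ± 1.8 CPM at 600 mOsm (SD, n = 3).

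The largest falls at 600 mOsm were those of Zfp169 (-1.57, edgeR adjusted p = 4.31e-04), Zfp703 (-1.21, adjusted p = 1.75e-05) and Zfp597 (-1.07, adjusted p = 0.00640). Zfp169, a KRAB gene, was also lower at 500 mOsm (-1.96, adjusted p = 8.69e-05), with 3.55, 4.10 and 6.13 CPM in iso-osmolar medium, 1.52, 1.09 and 0.953 CPM at 500 mOsm and 1.93, 1.12 and 1.59 CPM at 600 mOsm. The iso-osmolar libraries were spread, but none overlapped the stressed ones, and the stressed groups overlapped each other. Zfp597 shares 22.5% of its annotated sequence with 2 genes, among them Gm26675 on the opposite strand.

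Few members rose at 500 mOsm, and the smallest p belonged to Zfp521, Zfp217, Zfp367 and Zfp219. Zfp521, a factor with many fingers that restrains the commitment of mesenchymal cells to fat, had 3.01, 3.24 and 3.64 CPM in iso-osmolar medium, 6.80, 6.75 and 6.75 CPM at 500 mOsm and 5.82, 5.28 and 4.68 CPM at 600 mOsm. All stressed libraries lay above all controls. Its log2 fold change was 1.04 at 500 mOsm (SE 0.124, edgeR adjusted p = 3.89e-05), the largest of any member, and 0.67 at 600 mOsm (adjusted p = 0.00151). Between the intensities its change of -0.36 (adjusted p = 0.0343) was lost when any of the 500 mOsm libraries, or 600 mOsm library 2 or 3, was left out, with adjusted p between 0.0674 and 0.142.

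Zfp217, a subunit of corepressor complexes with the histone demethylase Lsd1 and a gene amplified in breast cancers, moved in opposite directions at the 2 intensities. It had 9.88, 10.3 and 9.90 CPM in iso-osmolar medium, 16.6, 14.1 and 15.5 CPM at 500 mOsm and 6.24, 5.06 and 5.49 CPM at 600 mOsm. Every library at 500 mOsm lay above the control and every library at 600 mOsm below it. The log2 fold change was 0.62 at 500 mOsm (SE 0.099, edgeR adjusted p = 3.82e-04), -0.84 at 600 mOsm (SE 0.107, adjusted p = 7.36e-05) and -1.46 between 600 and 500 mOsm (SE 0.104, adjusted p = 6.10e-07).

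Zfp367 was higher at 500 mOsm (0.50, edgeR adjusted p = 5.16e-04) and close to its control level at 600 mOsm (0.05, adjusted p = 0.663), with a mean of 41.2 ± 3.2 CPM in iso-osmolar medium, 58.4 ± 3.2 CPM at 500 mOsm and 42.8 ± 4.6 CPM at 600 mOsm (SD, n = 3), and it was lower at 600 than at 500 mOsm (-0.45, adjusted p = 0.00134). Zfp219, a partner of the cartilage factor Sox9, had 31.9, 37.2 and 35.4 CPM in iso-osmolar medium, 51.0, 55.7 and 45.2 CPM at 500 mOsm and 45.5, 44.5 and 55.3 CPM at 600 mOsm. Its stressed libraries lay above all controls and overlapped each other, by 0.54 (adjusted p = 0.00122) and 0.47 (adjusted p = 0.00290) on the log2 scale. Zfp90 had a change of 1.01 at 500 mOsm (adjusted p = 0.00339), but 74.7% of its sequence is shared with the opposite-strand transcript Gm26786, so its reads are uncertain.

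Members that rose at 600 mOsm with the smallest p were Zfp395 (0.40, edgeR adjusted p = 0.00123), Zfp521, Zfp219 and Zfp511 (0.26, adjusted p = 0.00768). The largest rises were those of Zfp579 (0.69, adjusted p = 0.00783), with between 4.69 and 6.17 CPM in iso-osmolar medium and between 7.07 and 10.7 CPM at 600 mOsm, of Zfp521 and of Zfp945 (0.64, adjusted p = 0.0261). The call of Zfp945, at about 1 CPM, was lost when any of the iso-osmolar libraries, or 600 mOsm library 1 or 2, was left out, with adjusted p between 0.0540 and 0.101, and by DESeq2 (0.108). No member rose by 1 or more on the log2 scale at 600 mOsm.

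**Figure D3:**
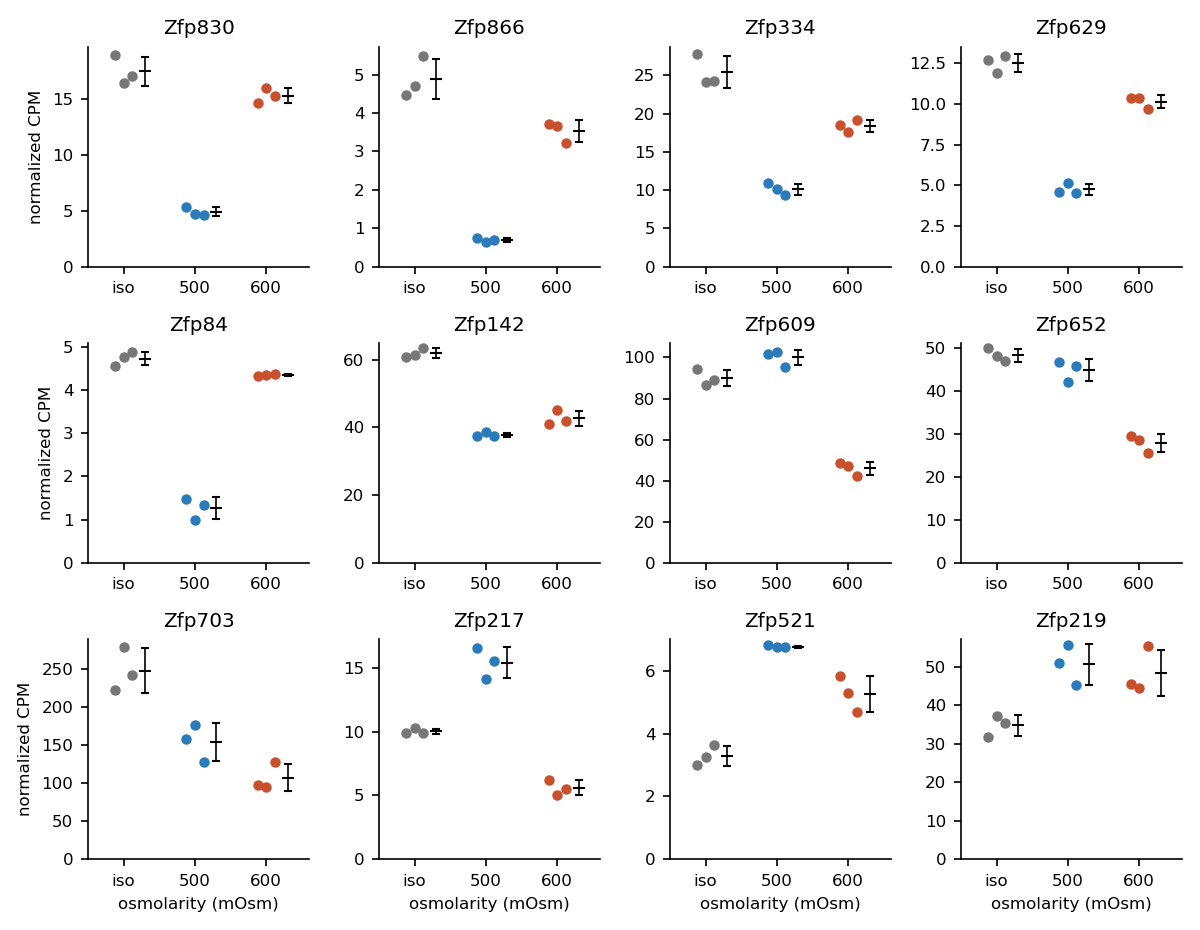
Normalized CPM of 12 named members in each library (points), with the mean and SD of each treatment (bars, n = 3), on linear axes that start at 0. Zfp830, Zfp866, Zfp334, Zfp629 and Zfp84 are lowest at 500 mOsm, Zfp609, Zfp652 and Zfp703 are lowest at 600 mOsm, and Zfp217 is highest at 500 mOsm and lowest at 600 mOsm.

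Members with well described roles were examined in 5 groups. Of 9 members that act in chromatin complexes, 2 were higher and 2 lower at 500 mOsm, 1 was higher and 5 were lower at 600 mOsm, and 4 were lower at 600 than at 500 mOsm. The shares lower were 22.2%, 55.6% and 44.4%, against 14.8%, 20% and 17.2% of all genes tested, and with 9 genes the share at 500 mOsm is near that of all genes. The members that fell at 600 mOsm, beside Zfp217, were Zfp592, a partner of Zmynd8 (-0.30, edgeR adjusted p = 0.00303), Zfp518b, a partner of the methyltransferase G9a (-0.70, adjusted p = 4.32e-04), Zfp462 (-0.50, adjusted p = 0.0167) and Zfp827, which recruits the NuRD complex to telomeres (-0.58, adjusted p = 5.67e-05). Between the intensities the call of Zfp827 (-0.21, adjusted p = 0.0477) was lost when any library other than 600 mOsm library 2 was left out, with adjusted p between 0.0594 and 0.182, and the correction for GC content and length gave -0.012 (adjusted p = 0.911). At 600 mOsm against iso-osmolar medium, the call of Zfp462 was lost without iso-osmolar library 1 and without 600 mOsm library 1 or 3, with adjusted p between 0.0547 and 0.0784. With the same correction, the calls of Zfp592 and Zfp462 were lost (edgeR adjusted p = 0.0565 and 0.0982). Zfp687 and Zfp644, partners of Zfp592 and G9a, passed the test in no comparison, and Zfp687 had 53.4 ± 1.3 CPM in iso-osmolar medium, 56.1 ± 3.2 CPM at 500 mOsm and 52.5 ± 2.6 CPM at 600 mOsm (SD, n = 3).

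Of 9 members that act on RNA, ribosomes or the spindle, 2 fell at 500 mOsm and 2 fell and 1 rose at 600 mOsm. These are 22.2%, 22.2% and 11.1%, near the 14.8%, 20% and 15.1% of all genes tested. Zfp598, the ubiquitin ligase that detects collided ribosomes, had 204 ± 18 CPM in iso-osmolar medium, 239 ± 31 CPM at 500 mOsm and 203 ± 15 CPM at 600 mOsm (SD, n = 3) and passed no test, the adjusted p being 0.0882 at 500 mOsm. Zfp622, a factor of large ribosomal subunit maturation, stayed between 152 and 189 CPM in all libraries. Zfp106, which binds RNA repeats, was lower at 600 mOsm (-0.43, edgeR adjusted p = 7.59e-04), with 23.2% of its sequence shared with the antisense transcript Gm26899. Zfp326, of a complex that links splicing and elongation, was lower at 600 mOsm too (-0.50, adjusted p = 0.00257). Zfp593, a ribosome factor, had a change of -1.08 at 500 mOsm (adjusted p = 0.0176), but it lay near 1 CPM, shares 57.9% of its sequence with an opposite-strand transcript and lost its call without iso-osmolar or 500 mOsm library 1 (0.0586 and 0.0576). The change of Zfp207, a spindle and kinetochore protein, was 0.16 at 600 mOsm (adjusted p = 0.0388), a call lost when any of 6 libraries was left out, with adjusted p between 0.0504 and 0.145.

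The 4 members of the group for mesenchyme and fat were Zfp521, Zfp516, Zfp703 and Zfp503. Zfp516, an activator of brown fat genes, was lower at 600 mOsm (-0.51, edgeR adjusted p = 1.55e-04) and near its control level at 500 mOsm (0.04, adjusted p = 0.694). Zfp703, a corepressor and breast cancer oncogene, was among the most abundant members, with 222, 280 and 243 CPM in iso-osmolar medium, 158, 177 and 128 CPM at 500 mOsm and 98.0, 95.4 and 128 CPM at 600 mOsm. Its libraries lay below the control in both treatments, with changes of -0.69 at 500 mOsm (adjusted p = 0.00127) and -1.21 at 600 mOsm. Its close relative Zfp503 had a change of -0.36 at 600 mOsm (adjusted p = 0.0193), a call lost without iso-osmolar library 2 and without 600 mOsm library 1 or 2, with adjusted p between 0.0660 and 0.0865.

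Of 6 members known to repress retroelements or guard imprints, 2 fell at 500 mOsm, 2 at 600 mOsm and none rose in either. These are 33.3% of 6 genes in each treatment, against 14.8% and 20% of all genes tested. Zfp57, which keeps the methylation of imprinted regions, had 10.3 ± 0.62 CPM in iso-osmolar medium, 8.11 ± 0.34 CPM at 500 mOsm and 7.42 ± 0.72 CPM at 600 mOsm (SD, n = 3), changes of -0.35 (edgeR adjusted p = 0.0216) and -0.47 (adjusted p = 0.00339). The first of these calls was lost without iso-osmolar library 1 (0.0800) and without 500 mOsm library 1 (0.0676). Zfp568, a repressor of a placental Igf2 transcript, was lower in both treatments, with changes of -0.31 (adjusted p = 0.00678) and -0.46 (adjusted p = 4.63e-04). Zfp445, which acts with Zfp57 at imprints, passed no test, with 3.37, 4.26 and 7.36 CPM in the iso-osmolar libraries alone.

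Of 6 members that bind promoters as activators, Zfp281 was lower at 500 mOsm (-0.70, edgeR adjusted p = 0.0229) and Zfp91 at 600 mOsm (-0.24, adjusted p = 0.0103), 16.7% of the group in each treatment and near the 14.8% and 20% of all genes tested. The call of Zfp281 was lost without iso-osmolar library 3 and without 500 mOsm library 2 or 3 (adjusted p between 0.0700 and 0.0984), and that of Zfp91 without 600 mOsm library 1 (0.0555) or with a correction for GC content and length (0.348). Zfp143, a factor of housekeeping promoters and chromatin loops, had a change of 0.31 at 500 mOsm (adjusted p = 0.0503). Zfp410, an activator whose known target is the chromatin remodeler Chd4, had 19.7 ± 0.11 CPM in iso-osmolar medium, 18.8 ± 0.41 CPM at 500 mOsm and 20.8 ± 2.0 CPM at 600 mOsm (SD, n = 3) and passed no test.

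The corepressors that KRAB proteins work through ranged in mean level from 5.65 CPM for Fam208a to 676 CPM for Chd4 in iso-osmolar medium. Of 20 tested, 4 rose and 1 fell at 500 mOsm, 20% and 5% against 13.2% and 14.8% of all genes tested. At 600 mOsm 3 rose and 6 fell, 15% and 30% against 15.1% and 20%, and the medians were -0.05 and -0.10. Trim28 rose slightly in both, from 557 ± 13.2 CPM to 636 ± 20.8 CPM at 500 mOsm (log2 fold change 0.19, edgeR adjusted p = 0.00540) and 642 ± 23.3 CPM at 600 mOsm (0.21, adjusted p = 0.00336; SD, n = 3). Setdb1, the methyltransferase that Trim28 recruits, passed no test (0.06 and -0.08). Chd4 was lower at 600 mOsm (-0.51, edgeR adjusted p = 1.50e-06). Ehmt1, a methyltransferase, was lower at 500 mOsm (-0.54, adjusted p = 1.33e-05) and at 600 mOsm (-0.29, adjusted p = 0.00171). In contrast, Ehmt2 was higher at 500 mOsm (0.23, adjusted p = 0.0314) and at 600 mOsm (0.28, adjusted p = 0.00950). Uhrf1 was higher in both too (0.14, adjusted p = 0.0309, and 0.23, adjusted p = 0.00145), and Chd3 at 500 mOsm (0.24, adjusted p = 0.00710).

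The KRAB box and the number of fingers were not used to choose the members. A protein without a KRAB match lacks only the letters searched for and may still carry a KRAB box. KRAB members below are those with a match, and the others are those without one. A wider pattern matched 77 members, of which 55.8% fell at 500 mOsm and 15.6% at 600 mOsm. Of the 146 members without that wider match, 39.7% and 33.6% fell. Of the 69 members with a KRAB match, 38 (55.1%) fell at 500 mOsm and 1 rose, with a median log2 fold change of -0.65. Of the 154 members without a match, 63 (40.9%) fell and 9 rose, with a median of -0.27. The order was the other way at 600 mOsm, with 9 (13.0%) of the KRAB members and 52 (33.8%) of the others lower, and medians of -0.14 and -0.15. Between the intensities 31 KRAB members (44.9%) were higher and 1 (1.45%) was lower, against 41 (26.6%) and 20 (13.0%) of the others. Over all genes tested, 14.8% were lower at 500 mOsm and 20% at 600 mOsm. The 13.0% of KRAB members lower at 600 mOsm lies below that share. The shares of all genes higher and lower between the intensities were 11.9% and 17.2%. None of the 20 members in the class of highest expression had a KRAB match, so the level of expression differed between these groups as well. Within the low class of expression 49.2% of the KRAB members and 39.1% of the others fell at 500 mOsm, and within the middle class, with 10 KRAB members, 90% and 46.2%. At 600 mOsm these shares were 10.2% and 17.4% in the low class and 30% and 43.1% in the middle class. Coding genes of the low and middle classes were lower in 13.4% and 18.6% at 500 mOsm and in 12.3% and 23.7% at 600 mOsm.

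The share of members lower at 500 mOsm was 34.1% of the 41 with fewer than 5 fingers, 41.8% of the 79 with 5 to 9, 51.5% of the 68 with 10 to 14 and 54.3% of the 35 with 15 or more. Medians ran from -0.13 and -0.36 to -0.51 and -0.71 in the same order. At 600 mOsm these shares were 29.3%, 25.3%, 26.5% and 31.4%. Over all genes tested, 14.8% were lower at 500 mOsm and 20% at 600 mOsm. Among members with 5 to 9 fingers, 15 of 20 with a KRAB match and 18 of 59 without one fell at 500 mOsm, while among those with 10 to 14 fingers the counts were 12 of 31 and 23 of 37. With 15 or more fingers they were 10 of 17 and 9 of 18, and with fewer than 5 they were 1 of 1 and 13 of 40. The share was thus higher in the KRAB members with 5 to 9 fingers and lower in those with 10 to 14. With 15 or more the counts lay close together, and 1 KRAB member cannot give a share for fewer than 5.

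Related families outside the set also had members that were lower, where 14.8% of all genes tested were lower at 500 mOsm and 20% at 600 mOsm. The shares of all genes that were higher were 13.2% at 500 mOsm and 11.9% between 600 and 500 mOsm. Of 16 tested genes with a KRAB match and another kind of symbol, 8 were lower at 500 mOsm and none was higher, with a median of -0.92, and 8 were higher at 600 than at 500 mOsm. Of 35 tested Zbtb genes, which join zinc fingers to a BTB domain, 18 were lower and 2 higher at 500 mOsm. At 600 mOsm 17 were lower, and the medians were -0.48 and -0.39. Of 16 tested Zkscan and Zscan genes, which join fingers to a SCAN domain, 10 were lower and 3 higher at 500 mOsm. At 600 mOsm 4 were lower, and the medians were -0.55 and -0.22. Among the 54 Zfp genes that were tested but missed the limit of 10 counts, 26 were lower at 500 mOsm and 1 was higher, with a median of -1.13, and 3 were lower at 600 mOsm, with a median of -0.06. A fall at 500 mOsm itself could push a gene below the limit, so the larger falls of these genes follow from the split and support nothing about the family.

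Gene length was examined in classes with limits that split the protein-coding genes tested into 3 equal parts. Of members with a listed transcript length of at most 2433 bases, 32.6% of 46 fell at 500 mOsm, of those in the middle class 42.9% of 91 and of those above 4071 bases 54.0% of 87. Among all protein-coding genes in these classes the shares were 11.2%, 16.2% and 18.5%. At 600 mOsm the members' shares were 10.9%, 18.7% and 44.8%, against 9.10%, 18.3% and 34.1% of the coding genes. The shorter and middle members at 600 mOsm were thus lower about as often as other genes of their length.

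At 500 mOsm the span on the chromosome, introns included, divided the members more sharply than the listed length, while at 600 mOsm the length did. Of 89 members that span at most 13229 bases, 51 (57.3%) fell at 500 mOsm, of 101 in the middle class 45 (44.6%) and of 34 that span more than 38802 bases 5 (14.7%). The shares among coding genes were 18.2%, 15% and 12.7%, so the members of wide span fell about as often as other genes of that span. The order turned at 600 mOsm, with 23.6%, 23.8% and 47.1% of members lower, against 14%, 18.1% and 29.5% of coding genes. Between the intensities, 36 of the 89 members of small span (40.4%) were higher at 600 mOsm and 3 (3.37%) lower. Among the 34 of wide span 1 (2.94%) was higher and 14 (41.2%) were lower. Of coding genes of small span 22.1% were higher and 11.1% lower, and of those of wide span 3.76% and 27.8%. This turn with span was thus also seen in coding genes at large. Zfp609, Zfp652, Zfp217, Zfp521, Zfp236, Zfp462 and Zfp516 belong to the class of wide span, and Zfp830, Zfp629, Zfp84 and Zfp747 to that of small span.

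Expression was divided in the same manner by mean log2 CPM, which is not scaled to length and so reflects the counts behind each gene. At 500 mOsm 43.4% of 129 members in the low class, 52.0% of 75 in the middle class and 30.0% of 20 in the high class fell, with medians of -0.51, -0.29 and -0.06. The coding genes of these classes fell in 13.4%, 18.6% and 13.9%. At 600 mOsm the members' shares rose with the level, with 14%, 41.3% and 60.0% lower, against 12.3%, 23.7% and 25.6%, and medians of -0.12, -0.15 and -0.27. Genes of low level have larger standard errors, so a fall of a given size passed the test less often among them. At 600 mOsm the share by span differed with the level. Of members of wide span, 1 of 13 in the low class of expression was lower, 11 of 16 in the middle and 4 of 5 in the high class. From small to wide span, 11.5%, 17.2% and 7.69% of members in the low class were lower. In the middle class these shares were 38.7%, 28.6% and 68.8%. The parts of span and level were not tested. Zfp609, Zfp703 and Zfp706 belong to the high class, and Zfp706, the highest by FPKM, had changes of -0.14 at 500 mOsm (edgeR adjusted p = 0.0464) and -0.25 at 600 mOsm (adjusted p = 0.00186).

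**Figure D4:**
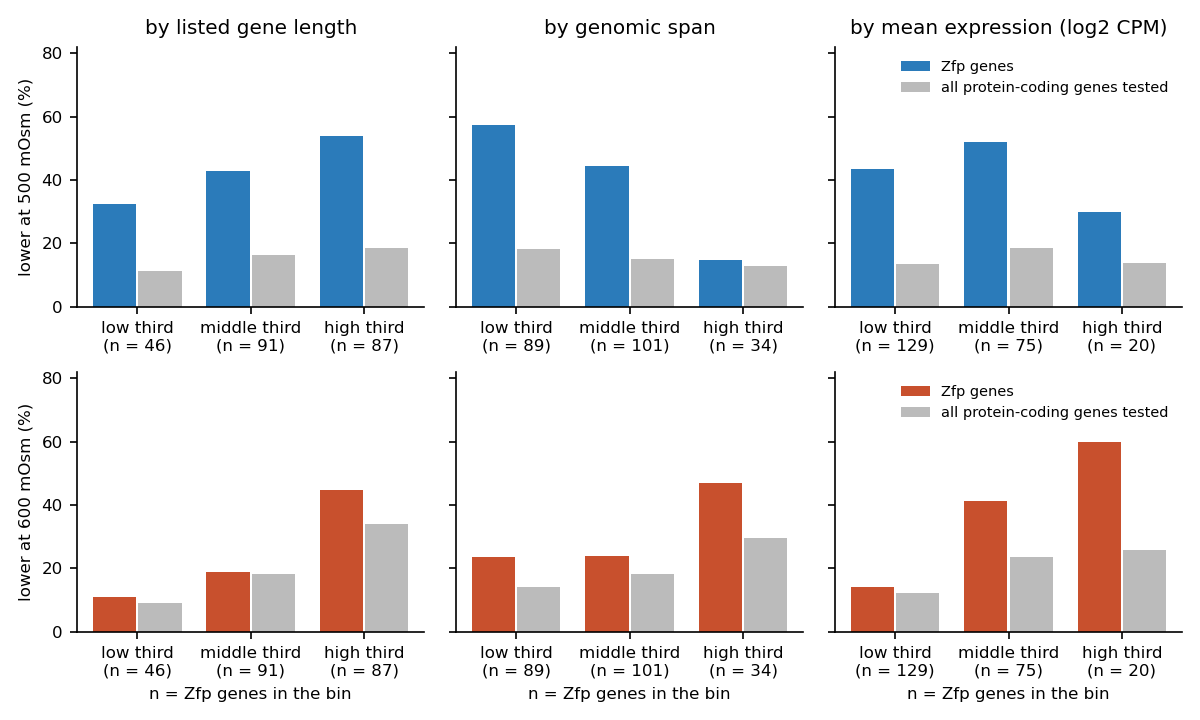
Share of genes (%) lower than in iso-osmolar medium at 500 mOsm (upper row) and 600 mOsm (lower row) in classes of listed gene length, genomic span and mean expression, for Zfp genes (colored bars) and all protein-coding genes tested (grey bars). The Zfp share falls with span at 500 mOsm, from 57.3% to 14.7%, and is highest in the classes of wide span and high expression at 600 mOsm, 47.1% and 60.0%. Each split is shown without regard to the others.

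The members lie on all autosomes and on chromosome X, and chromosome 7 holds the most. Of its 56 members, 34 (60.7%) fell at 500 mOsm, where 16.9% of the 880 protein-coding genes tested on that chromosome did, and 13 (23.2%) fell at 600 mOsm, against 16.6%. Between the intensities 25 members of chromosome 7 (44.6%) were higher and 1 (1.79%) was lower, against 15.9% and 14.9% of its coding genes. On chromosome 17, 7 of 24 members (29.2%) fell at 500 mOsm, against 14.4% of its coding genes. It was 9 of 16 (56.2%) against 16.1% on chromosome 8, 9 of 14 (64.3%) against 15% on chromosome 6 and 6 of 14 (42.9%) against 15.6% on chromosome 5. On chromosome 13 it was 3 of 12 (25%) against 16.1% and on chromosome 9 it was 3 of 14 (21.4%) against 17.0%. On chromosome 18, 3 of 10 members were lower at 500 mOsm, 5 at 600 mOsm and 5 at 600 than at 500 mOsm, against 16%, 26.5% and 21.6% of its coding genes, and that 26.5% is the highest share lower at 600 mOsm on any chromosome.

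**Figure D5:**
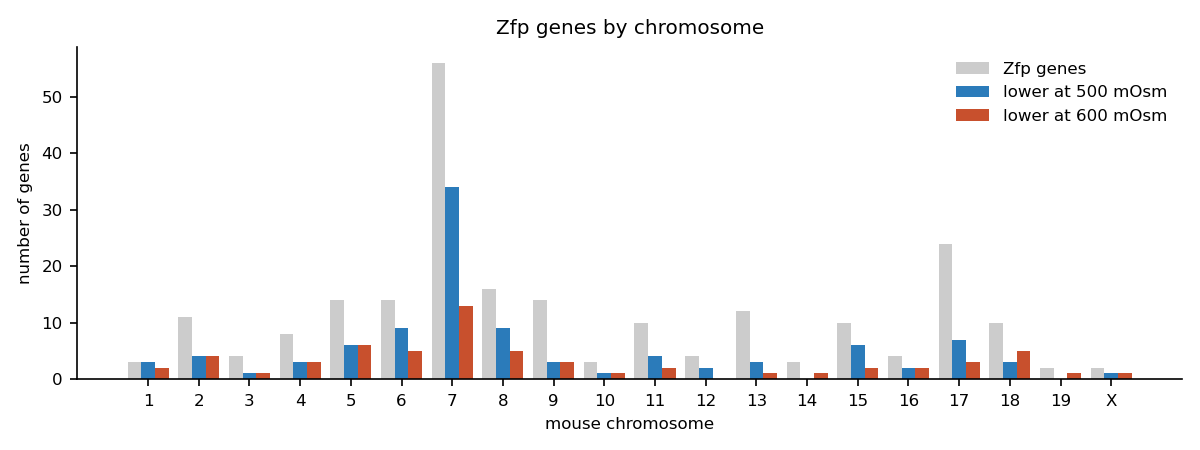
Number of Zfp genes on each mouse chromosome (grey) and the number lower than in iso-osmolar medium at 500 mOsm (blue) and 600 mOsm (orange). Chromosome 7 holds 56 genes, of which 34 were lower at 500 mOsm and 13 at 600 mOsm.

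Neighbouring zinc finger genes often descend from one another by duplication, so members of a cluster may not be independent of each other. Clusters were defined here by distance alone, and descent was not tested. With members no more than 500000 bases apart taken as neighbours, 121 members lay in 32 clusters and 103 lay alone. Of those alone, 32 (31.1%) fell at 500 mOsm, with a median log2 fold change of -0.17. Of 58 members in clusters of 2 to 4, 33 (56.9%) fell, with a median of -0.57, and of 63 in clusters of 5 or more, 36 (57.1%) fell, with a median of -0.56. At 600 mOsm the shares were 31.1%, 29.3% and 19%. Of all genes tested, 14.8% were lower at 500 mOsm and 20% at 600 mOsm. The share in clusters of 5 or more at 600 mOsm was thus near that of all genes.

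Clusters of like size differed from each other at 500 mOsm, where 14.8% of all genes tested fell. In the cluster at chr7:127233061-127885996, 8 of 9 members fell at 500 mOsm, from Zfp747 (-1.99) and Zfp629 (-1.40) to Zfp768 (-0.42), and Zfp771 (0.11) did not pass the test. All 6 members at chr6:47835661-48086593 fell, with changes from -1.80 in Zfp398 to -0.30 in Zfp746. At chr7:24081924-25227507, 7 of 11 members fell, led by Zfp111 (-1.79), and at chr7:29768552-30169727 it was 7 of 11, led by Zfp84 (-1.90). At chr17:32771236-33631779, 4 of 6 fell, with a median of -1.20.

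In contrast, at chr17:21008941-22867134, where 9 of 10 members have a KRAB match, 1 member fell at 500 mOsm, with a median of -0.05. That member was Zfp160, and the values of its neighbours ran up to 0.63 in Zfp948. At chr7:4915217-5053722, 1 of 5 members fell at 500 mOsm, with a median of 0.05. In both of these clusters the share is near the 14.8% of all genes tested. Both chromosomes thus hold clusters with many members lower and clusters with few, although at chr17:21008941-22867134 most members lay in the low class of expression. Members outside the rule for named genes, such as Zfp111, Zfp398, Zfp746, Zfp768, Zfp771 and Zfp948, were chosen here after their values were seen.

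Members that share sequence could exchange reads, and 39 of the 224 share at least 5% of their annotated sequence, in stretches of 100 bases, with another gene. Among the members named here, the gene that shared the most sequence was mostly not another Zfp gene. The positions of these genes were not compared, so overlap in the genome was not examined. The counts without these 39 members are given with the other alternatives.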

How the data were processed

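RNA from MEFs in 3 treatments, 3 libraries each, was analysed. The study's methods and the submitters' processing notes name poly-T selection, paired-end sequencing, CASAVA 1.8, the aligner STAR and the mouse genome mm10, while the counting tool and its strand setting are not given in the sources used here. The authors deposited, per gene and library, a read count without normalization and an FPKM made from it with the listed gene length. The table also holds comparisons made by the authors, as a log2 fold change with its p-value, which were not used.

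Counts were scaled by TMM and tested in edgeR 4.0.16 (R 4.3.3) by the quasi-likelihood test, treatment being the only factor and all 9 libraries entering a single fit. filterByExpr kept 13082 genes, over which Benjamini-Hochberg adjustment was made, and 0.05 was the threshold. A standard error is the log2 fold change divided by the square root of F. CPM use the normalized library size, and the biological coefficient of variation in common was 0.0756. The test was tried on simulated data first.

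The members were chosen with earlier results of these data known, as were the lists of roles, corepressors and families. Named genes are the 4 members per direction with the smallest p and the 3 with the largest change in each comparison, members of the role lists, those at the ends of the ranges and those at the count limit. Other genes are named as such. Fingers and KRAB and SCAN boxes were searched in translated coding sequences of GENCODE M21, in place of the RefSeq proteins planned, and promoters were taken from RefSeq (GRCm38.p6) where they lay within 500 bases of the deposited start. Shared sequence was counted as identical stretches of 100 bases.

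Replicate numbers did not pair the libraries. The alternatives were RLE factors or library size alone, other gene filters, DESeq2 1.42.0, limma 3.58.1 on log2 FPKM with 1 or 0.1 added, the replicate number as a block, only the 2 groups compared, stricter thresholds, all Zfp genes tested, and each library left out. A correction for GC content and length, the same with the block, members without shared sequence and a wider KRAB pattern were added after the data were seen.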

Additional observations from a re-analysis of the deposited data

Results flagged for a closer look

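The effect of stress on Zfp217 differed between the intensities. Every library at 500 mOsm lay above every iso-osmolar library and every library at 600 mOsm below it, and the test of the difference itself, 600 against 500 mOsm, gave a log2 fold change of -1.46 (edgeR adjusted p = 6.10e-07).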

How the results depend on the processing

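No result reversed under any alternative. An adjusted p under 0.01 left 6 members higher at 500 mOsm, 5 higher and 40 lower at 600 mOsm, and 43 higher at 600 than at 500 mOsm. Shares of all genes at 0.01 are not given here, so these counts cannot be set against them. Asking for a change of 1 or more on the log2 scale left 2 higher and 41 lower at 500 mOsm, 0 higher and 5 lower at 600 mOsm, and 22 higher and 3 lower between the intensities. Of the 13082 genes tested, this left 711 higher and 411 lower at 500 mOsm and 316 and 426 at 600 mOsm. Between the intensities it left 206 higher and 651 lower. With all 278 Zfp genes tested, the medians were -0.47 at 500 mOsm and 0.32 between the intensities. On log2 FPKM with 1 added, which understates the change of low genes, limma gave medians of -0.19 and 0.11, with or without a filter, and 45 members higher at 600 than at 500 mOsm without it. The correction for GC content and length gave 17 members higher at 600 mOsm instead of 10, and the cause was not tested.

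Leaving out single libraries, 7 to 11 members were higher and 87 to 102 lower at 500 mOsm (medians -0.43 to -0.34). At 600 mOsm 6 to 13 were higher and 47 to 64 lower (medians -0.22 to -0.14), the 6 being reached without iso-osmolar library 1 and without 600 mOsm library 1, and the median of -0.22 without 600 mOsm library 2. Between the intensities 56 to 72 were higher and 16 to 20 lower (medians 0.17 to 0.30).

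Same-numbered libraries did not deviate together (mean r -0.23 over 9 pairs and 9461 genes, against 0.12 for different numbers), and 2 of 9 libraries correlated best with their own number. With the replicate number as a block, 9 members rose and 93 fell at 500 mOsm, 9 and 53 at 600 mOsm, and 57 and 17 between the intensities. Without the members that share sequence, 82 of 185 were lower at 500 mOsm, 48 at 600 mOsm, and 58 higher between the intensities. For the named members, 3050 values were recomputed over all comparisons and alternatives, of which 2772 kept their direction and side of the threshold and 278 kept the direction alone. Depth limits the members of about 1 CPM, whose fold changes rest on low counts.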

Other observations

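In classes of transcript GC content with limits from all protein-coding genes tested, 38.9% of 113 members of low GC, 56.7% of 60 of middle GC and 45.1% of 51 of high GC were lower at 500 mOsm, against 14.3%, 16.6% and 15% of the coding genes. At 600 mOsm the members' shares were 16.8%, 43.3% and 31.4%, against 21.1%, 24.1% and 16.4%.

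Among the 54 Zfp genes tested that missed the limit of 10 counts, Zfp362 was the one that was higher at 500 mOsm, by 2.95 on the log2 scale (edgeR adjusted p = 5.64e-07) and -0.21 at 600 mOsm. It was picked out after its values were seen.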
